A study of Sus scrofa with 12 samples.

Results

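Thyroid hormone acts on skeletal muscle through a short chain of proteins. The hormone enters the fiber through membrane transporters, deiodinases convert the prohormone thyroxine into the active triiodothyronine or inactivate it, and triiodothyronine binds nuclear receptors that sit on DNA with retinoid X receptors as partners. Without hormone the receptors hold corepressors on their target genes, and with hormone they exchange them for coactivators. In muscle this chain is known for its effects on fiber type, calcium pumping and energy use. The genes examined here were THRA and THRB, which encode the alpha and beta receptors, DIO2, the deiodinase that activates thyroxine inside the cell, SLC16A10, a transporter of thyroid hormones and aromatic amino acids, NCOR1, a corepressor of the unliganded receptors, and NCOA1, a coactivator of nuclear receptors.

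The data were ATAC-seq reads, in which a transposase cuts accessible DNA so that reads gather where chromatin is open, from the longissimus dorsi muscle of 3 Duroc boars, a lean breed, and 3 Luchuan boars, a fat breed, all 180 days old, fed alike and fasted overnight before slaughter. The deposited table gave 1 raw read count per breed for each peak interval. Its columns name the breed and no boar, and were taken to be pools of the 3 boars, so no value below has a spread between animals and no test between breeds was possible. Regions were chosen by position alone: the midpoint of an interval had to lie in the Sscrofa11.1 body of 1 of the 6 genes or within 10 kb of it. This gave 268 intervals, which formed 180 of the 140081 open regions after overlapping intervals called in both breeds had been merged. Of the 180 regions 160 lay inside a gene body, and together they held 22411 Duroc and 14886 Luchuan reads.

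Luchuan reads were multiplied by 1.48 so that the median region called in both breeds had a log2 ratio of Luchuan to Duroc of 0. Every ratio below is on this scaled log2 scale with 1 read added to each count, and positive values are higher in Luchuan. The 95% Clopper-Pearson intervals beside them cover counting error only, because the reads carry no molecular identifiers and the boars were not separate. Pooled tissue cannot tell a change in chromatin from a change in the mix of cells. Muscle markers were open in both breeds: the 10 skeletal muscle genes looked up had between 52.0 and 256.1 Duroc reads per kb of window, the 88.5th percentile of all genes or above. The 4 adipocyte, 4 endothelial, 4 leukocyte and 3 liver genes summed to 72.4, 9.61, 29.6 and 28.5 Duroc reads per kb. The longer list of 10 muscle genes summed to 1618, and no gene of these lists was at 0. CIDEC alone held 56.1 of the adipocyte sum, at the 90.1st percentile and above the lowest muscle gene, while the adipocyte genes had a median at the 32.9th. In scaled Luchuan reads the same sums were 74.9, 9.99, 30.2 and 34.1, against 1341 for muscle. The median ratio was 0.10 over the adipocyte genes, 0.37 over the endothelial, 0.06 over the leukocyte and 0.88 over the liver genes, with the interval above 0 for 2 of the 4 endothelial genes (TEK at 0.79 and KDR at 0.73). The part of these cell types in the ratios below was not tested. Genes particular to the thyroid gland (TG and TSHR) lay at the 37.3rd and 33.3rd percentile in Duroc, with ratios of 0.20 and 0.15 whose intervals lay above 0.

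The 6 genes differed far more in how open they were than in how they differed between breeds. Per kb of gene window, THRA held 130.2 Duroc reads and 110.9 scaled Luchuan reads, above 99.2% and 98.8% of all 19550 genes. Of the 6012 Duroc reads in this window, 2956 lay in 7 regions inside the body of the neighbour NR1D1. The body of THRA alone held 2481 in 11 regions. This measure also depends on the length of the window: THRB had 5888 Duroc reads in 479.9 kb, and THRA its 6012 in 46.2 kb. SLC16A10 followed with 25.2 Duroc and 26.9 Luchuan reads per kb. NCOA1 had 15.2 and 14.9, NCOR1 13.5 and 12.0, and THRB 12.3 and 13.2, all near the Duroc median gene at 14.6 reads per kb. DIO2 was the least accessible, with 5.07 Duroc and 6.02 Luchuan reads per kb, at the 30.1st and 32.3rd percentile. NCOR1 and THRB changed places between the breeds, and the other genes kept the same order in both. Density of regions gave a similar picture, with 43.3 regions per 100 kb at THRA, more than in 99.6% of genes, against 11.9 at THRB and 8.74 at DIO2, where the median gene had 8.57.

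The region with the most reads in each gene lay at or close to a gene end. It spanned the end with the lower coordinate in THRA, SLC16A10 and NCOR1 and the end with the higher coordinate in DIO2 and NCOA1, and in THRB it stopped 225 bases inside the end with the higher coordinate. The annotation gives no strand, exons or UTRs, so it was not determined which end is the start of transcription. Per kb of region, others were higher in some genes: in THRA the region from 22264748 to 22265371, inside NR1D1 and below the end of THRA, had 1046 Duroc and 977 scaled Luchuan reads per kb against 958 and 766 at the gene end. In NCOA1 the region from 114041630 to 114042122 led in Duroc with 704 reads per kb against 696, and in SLC16A10 the region from 77038795 to 77039428 led in Luchuan with 801 against 787. None of the 6 regions with the most reads reached a 2-fold difference. The ratios were -0.32 for THRA (-0.50 to -0.15), -0.09 for NCOA1 (-0.24 to 0.05), 0.04 for SLC16A10 (-0.11 to 0.19), 0.05 for NCOR1 (-0.16 to 0.25), 0.22 for THRB (0.07 to 0.37) and 0.29 for DIO2 (-0.18 to 0.74).

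Summed over each gene window, the receptor THRA was the lowest in Luchuan relative to Duroc and DIO2 the highest. The ends of this order moved with the rules: NCOR1 was lowest with the gene body alone or with regions in no other gene body, THRB was highest with the body and 2 kb, and SLC16A10 was highest by the median of region ratios. THRA had 6012 Duroc and 3472 Luchuan reads, which is 1.17-fold higher in Duroc after scaling (log2 ratio -0.23, -0.29 to -0.17). NCOR1 had 2109 and 1265 reads, with a ratio of -0.18 (-0.28 to -0.07). NCOA1, with 4163 and 2759 reads, had a ratio of -0.03 whose interval held 0 (-0.10 to 0.04). SLC16A10 had 4065 and 2943 reads and a ratio of 0.10 (0.03 to 0.16), and THRB had 5888 and 4307 reads and a ratio of 0.11 (0.05 to 0.17), both slightly higher in Luchuan. DIO2 had only 174 and 140 reads, and its ratio of 0.25 could not be told from 0 by counting alone (-0.08 to 0.58).

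**Figure D1:**
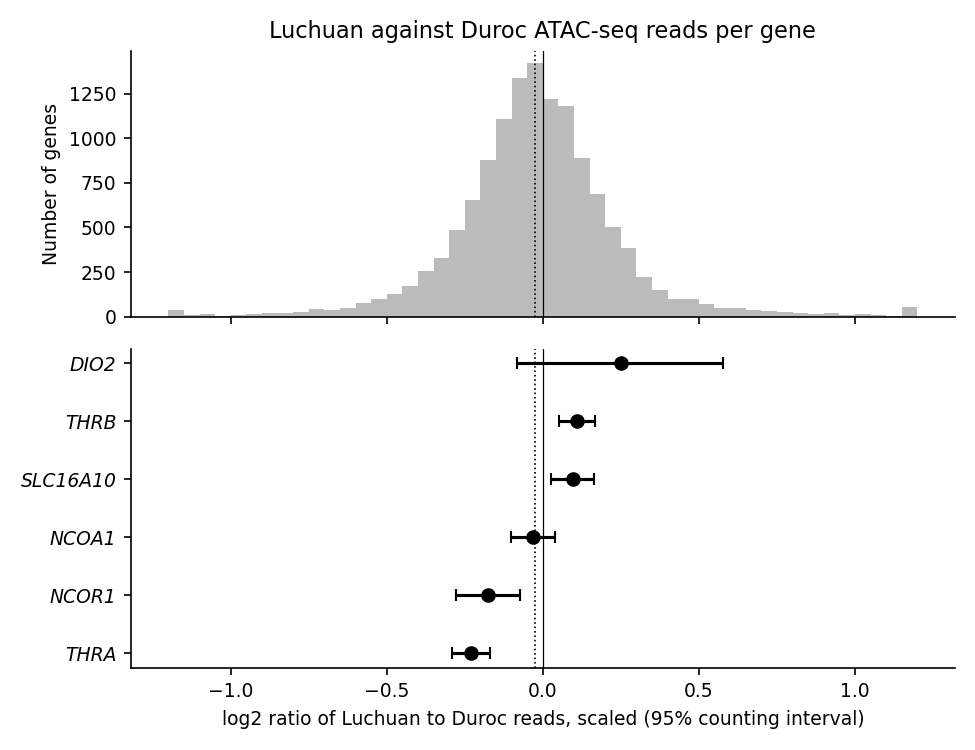
Upper panel, number of genes (y axis) by log2 ratio of Luchuan to Duroc reads (x axis, scaled) for the 13055 protein-coding genes with 3 or more regions; the outermost bars also hold genes beyond them. Lower panel, the 6 genes with their 95% counting intervals; the dotted line is the median gene at -0.02. THRA at -0.23 and DIO2 at 0.25 lie at the outside of the 6, all within the bulk of genes.

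Set among the 13055 protein-coding genes with at least 3 regions, as many as DIO2 has, these differences were modest. THRA lay at the 15.6th percentile, NCOR1 at the 21.8th, NCOA1 at the 48.3rd, SLC16A10 at the 72.9th, THRB at the 75.3rd and DIO2 at the 89.6th. A counting interval above 0, as THRB and SLC16A10 had, was found in 21.5% of these genes, and one below 0, as THRA and NCOR1 had, in 29.8%. With the study's total of clean reads per breed as the scale in place of the shared regions, all ratios shifted by -0.20 and the signs of THRB (-0.085) and SLC16A10 (-0.10) turned, whereas the rank of a gene among all genes does not depend on that scale. The same holds for differences between genes. THRB exceeded THRA by 0.34 (counting interval 0.26 to 0.42), SLC16A10 exceeded THRA by 0.33 (0.23 to 0.42) and NCOA1 exceeded NCOR1 by 0.14 (0.02 to 0.27). Neighbours in the order were not all apart: NCOR1 minus THRA was 0.05 (-0.06 to 0.17), SLC16A10 minus THRB was -0.01 (-0.10 to 0.07) and DIO2 minus THRB was 0.14 (-0.19 to 0.46), whereas NCOA1 minus SLC16A10 was -0.13 (-0.22 to -0.03).

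Over single regions, the share that differed was close to that of the genome. A region was counted as called when it differed 2-fold or more and its interval left out 0. Of the 180 regions 11 were called higher in Luchuan, or 6.11%, and 8 lower, or 4.44%. Over all 140081 regions the shares were 6.38% and 4.99%. The 11 higher regions were weak, with 28 to 92 reads in both breeds together, and all 11 had been detected as peaks in Luchuan only, a class in which 30.5% of regions genome-wide were called higher. Of the 8 lower regions 7 were peaks of Duroc only, where 13.5% were called lower, and their depth ranged from 20 to 270 reads. Among the 88 member regions with 100 or more reads none was called higher and 5 were called lower, against 1.42% and 4.62% of such regions in the genome. The split between directions moved with the scaling, from 11 higher and 8 lower to 4 and 13 when regions were centred against others of like depth, and to 4 and 15 with clean reads as the scale.

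**Figure D2:**
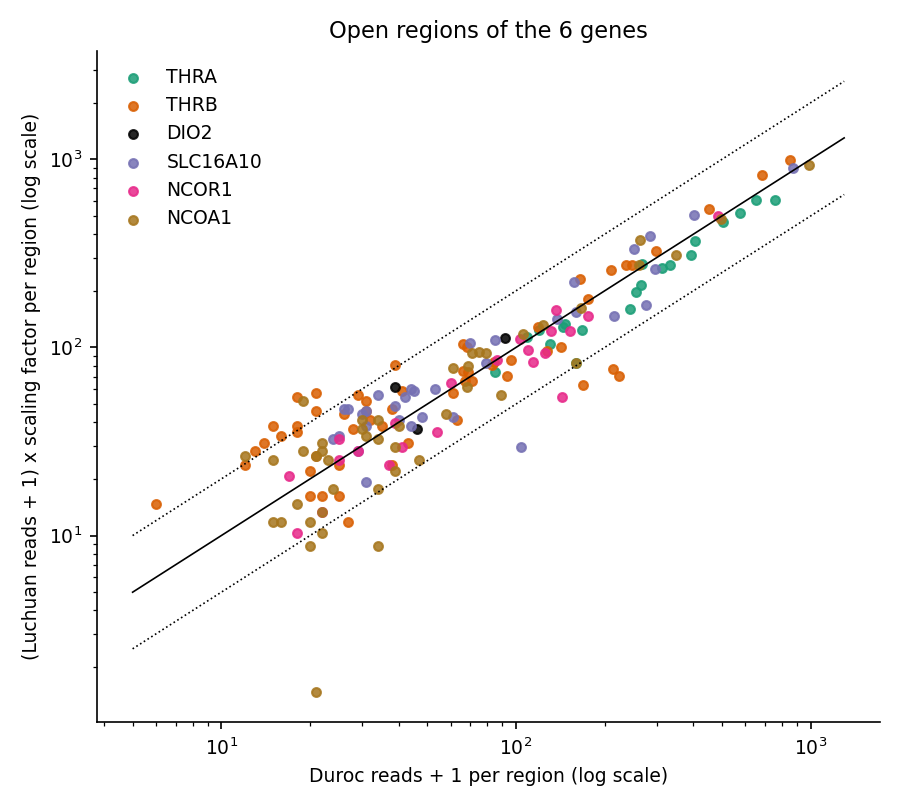
Each point is 1 of the 180 regions, coloured by gene, on log scales. The x axis gives Duroc reads plus 1, and the y axis Luchuan reads plus 1, multiplied by the scaling factor. The solid line marks equal values and the dotted lines 2-fold differences; most regions lie between the dotted lines, and those above the upper line are weak. The lowest point is an NCOA1 region with 20 Duroc reads and 0 Luchuan reads.

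Peak detection split the members much as it split the genome. Peaks were called in both breeds for 45.6% of the 180 regions, in Duroc only for 31.7% and in Luchuan only for 22.8%, against 49.1%, 31.8% and 19.1% of all regions. The genes differed in this respect. In THRA 14 of 20 regions were shared, 4 were of Duroc only and 2 of Luchuan only. THRB had 24 shared, 16 Duroc-only and 17 Luchuan-only regions, and NCOA1 had 12, 22 and 11. All 3 regions of DIO2 were shared.

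THRA lies on chromosome 12 from 22270506 to 22296684 and shares 3626 bases at its lower coordinates with NR1D1, the gene of the clock repressor REV-ERB alpha. Its window held 20 regions with 133 to 1167 reads each, a median of 398.5. The median region had 259.5 Duroc reads (range 84 to 757) and 139 Luchuan reads (range 49 to 413). Ratios were below 0 in 17 of the 20 regions, the intervals of 8 lay wholly below 0 and none lay wholly above it. Deep regions such as these have narrower intervals, which leave out 0 more easily. How often the intervals of all regions, or of those of like depth, leave out 0 was not tested. Counts of such intervals, for THRA and the genes below, therefore have no background. The interval of 3 regions, or 15.0%, left out the gene's own ratio, near the 19.8% of region and gene pairs in the genome. With the window cut into 3 equal stretches, the ratios were -0.26 over 9 regions, -0.17 over 10 and -0.35 for the single region of the last stretch, so all 3 lay on the Duroc side.

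The region across the lower coordinate end of THRA, from 22270396 to 22271185, counted 757 reads in Duroc against 410 in Luchuan, a ratio of -0.32 (-0.50 to -0.15). Across the opposite end, from 22296374 to 22296948, the reads were 393 and 209 and the ratio was -0.35 (-0.60 to -0.10). The lowest ratio of the gene, -0.95 (-1.44 to -0.52), belonged to the Duroc-only region from 22272527 to 22272731 with 159 and 55 reads, inside both THRA and NR1D1. None of the 20 regions reached 2-fold. The 7 regions inside NR1D1 had a summed ratio of -0.23 (-0.32 to -0.14), and the 13 others had -0.23 (-0.32 to -0.15). Those of the 7 below 22270396 lay in the body of NR1D1 and only in the flank of THRA. Reads in the regions inside both bodies cannot be assigned to either gene. The 11 regions inside the THRA body alone had a summed ratio of -0.19 (-0.29 to -0.10). The 10 muscle marker genes had a median ratio of -0.31 (range -0.62 to 0.06), with the interval below 0 in 8 of them and above 0 in 1, and the part of this in the ratio of THRA was not tested.

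THRB had the most regions of the 6 genes. It spans 459.9 kb of chromosome 13, from 10900716 to 11360587, and its window held 57 regions with 14 to 1522 reads and a median of 79. In Duroc the regions held 5 to 850 reads (median 40), in Luchuan 7 to 672 (median 38). In 16 regions, or 28.1%, the interval left out the gene's own ratio, against 27.3% in SLC16A10 and 19.8% in the genome. The calls went in both directions, with 9 regions higher in Luchuan and 4 lower, which is 15.8% and 7.02% of the 57, beside the 6.38% and 4.99% given above. Centred against regions of like depth, or on the scale of clean reads, 3 were higher and 4 lower, and with regions of 50 or more reads 4 were higher and 3 lower.

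Summed reads of THRB differed in direction along the gene. With the window cut into 3 stretches of 160.0 kb, the lowest by coordinate had 1095 reads in Duroc and 536 in Luchuan over 17 regions, a ratio of -0.47 (-0.62 to -0.32). The middle stretch had 1557 and 1281 reads in 10 regions and a ratio of 0.28 (0.17 to 0.39), and the last had 3236 and 2490 reads in 30 regions and a ratio of 0.18 (0.11 to 0.26). The lowest stretch differed from the rest by -0.68 (-0.85 to -0.52), a difference that a single scaling factor cannot change. Ratios were above 0 in 8 of 10 regions of the middle stretch and 23 of 30 of the last, but in 7 of 17 of the lowest, where 3 regions were called higher and 3 lower. Much of the ratio of the lowest stretch rested on the pair of regions described next. Without them, a choice made after the values were seen, its other 15 regions had 704 and 447 reads and a ratio of -0.09 (-0.27 to 0.08), and the difference from the rest was -0.31 (-0.49 to -0.13).

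Of the 3 THRB regions with 100 or more reads that were called lower in Luchuan, a pair flanked the end with the lower coordinate. The Duroc-only region from 10899055 to 10899504, centred 1.44 kb outside that end, held 223 reads in Duroc and 47 in Luchuan, a 3.16-fold difference (ratio -1.66, -2.17 to -1.23). The region from 10901776 to 10902249, centred 1.30 kb inside it and called in both breeds, had 168 and 42 reads and a ratio of -1.41 (-1.96 to -0.94), 2.66-fold. A limit of 60 kb from this end, set after the values had been seen, took in 11 regions with 860 and 323 reads and a ratio of -0.85 (-1.04 to -0.67), of which 9 had ratios below 0. Without the pair the ratio was -0.44 (-0.67 to -0.21) over 9 regions. The other 46 regions had 5028 and 3984 reads and a ratio of 0.23 (0.17 to 0.29), with 36 above 0.

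The rest of THRB held 1 further strong Duroc region, from 11296140 to 11296715, with 212 and 51 reads and a ratio of -1.47 (-1.96 to -1.05). The fourth lower call, from 10944573 to 10944730, rested on 26 and 7 reads (-1.19, -2.78 to -0.09). Regions called higher in Luchuan were scattered from 46.1 to 451.9 kb from the lower end and were all weak. By reads, the leading ones were those from 11155688 to 11155996 with 38 Duroc and 54 Luchuan reads (1.06, 0.44 to 1.71), from 11352540 to 11352689 with 20 and 38 (1.45, 0.67 to 2.35), from 11219859 to 11220096 with 17 and 36 (1.60, 0.77 to 2.57) and from 11287205 to 11287404 with 20 and 30 (1.12, 0.28 to 2.04). Of the 25 regions with 100 or more reads none was called higher and 3 were called lower. The 8 with 319 or more reads, a limit set after the values were seen and above the depth of those 3, had ratios between 0.13 and 0.48. At the end with the higher coordinate, where the gene is most open, the region from 11359183 to 11360362 had 850 and 672 reads (0.22, 0.07 to 0.37), and the Duroc-only region just outside that end, from 11361238 to 11361438, had 65 and 50 (0.19, -0.38 to 0.74).

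**Figure D3:**
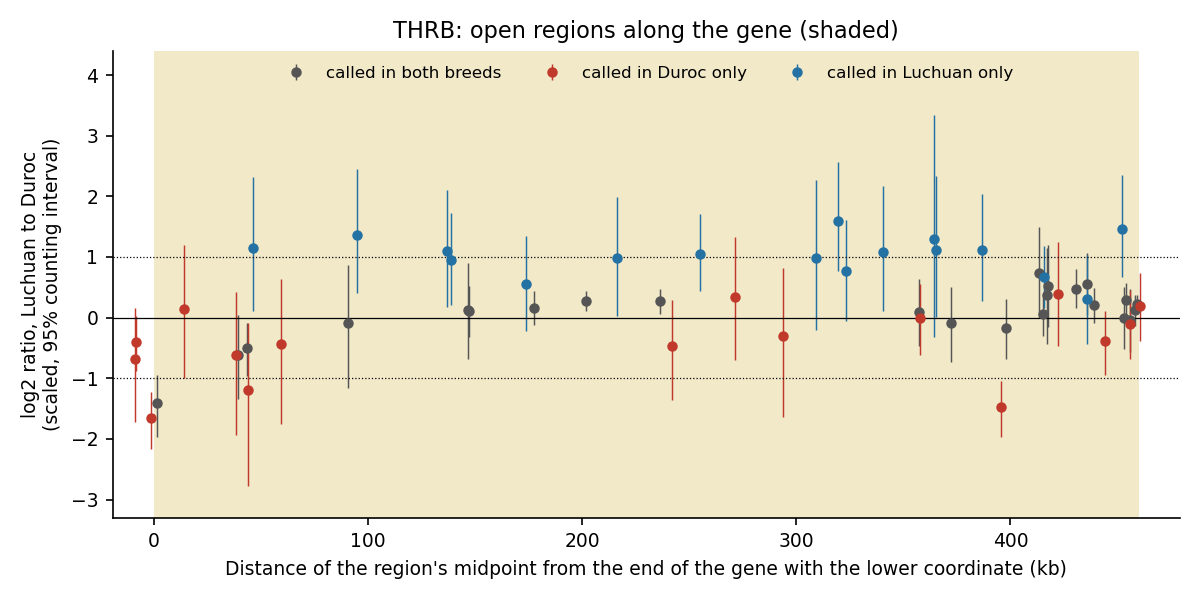
Log2 ratio of Luchuan to Duroc reads (y axis, scaled, bars are 95% counting intervals) of the 57 THRB regions by distance of the midpoint from the gene end with the lower coordinate (x axis, kb); colours give the breed in which a peak was called and dotted lines mark 2-fold. The regions on both sides of the lower end lie at -1.66 and -1.41, whereas the shared regions near the opposite end lie close to 0 or slightly above it.

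DIO2, whose enzyme makes triiodothyronine inside the cell, had little open chromatin in this muscle. It lies on chromosome 7 from 103096414 to 103110749 and its 34.3 kb window held 3 regions, all at or beyond the end with the higher coordinate. The region across that end, from 103110422 to 103110782, counted 91 reads in Duroc and 75 in Luchuan (0.29, -0.18 to 0.74). The next, from 103111220 to 103111450, had 45 and 24 reads (-0.32, -1.12 to 0.40), and the one from 103112852 to 103113082 had 38 and 41 reads (0.67, -0.0018 to 1.35). The 3 intervals overlapped each other and all held 0. Counted over all 6 overlapping peak intervals in place of merged regions, the gene had a ratio of 0.26 whose interval left out 0 (0.015 to 0.51), but such intervals count shared reads more than once. The rest of the gene body held no region, nor did the 10 kb below it.

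SLC16A10 lies on chromosome 1 from 76998359 to 77139534 and had 33 regions with 42 to 1478 reads, a median of 83. Read by breed, the range was 23 to 871 in Duroc (median 47) and 12 to 607 in Luchuan (median 37). Ratios were above 0 in 23 regions, with 8 intervals wholly above 0 and 3 below, and the median region, at 0.32, lay above the ratio of the summed reads. As for THRA, the share of such intervals over all regions was not tested. The region across the lower end, from 76998014 to 76999151, held 21.1% of all reads of the gene, with 871 reads in Duroc and 607 in Luchuan (0.04, -0.11 to 0.19). The 4 regions in the first 10 kb had a summed ratio of -0.02 (-0.14 to 0.11), and the other 29 of 0.15 (0.06 to 0.23).

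Inside SLC16A10, open regions between 30 and 60 kb from the lower end, a stretch picked after its values were seen, had a summed ratio of 0.34 (0.22 to 0.46) over 9 regions. The strongest difference went the other way. The Duroc-only region from 77073874 to 77074181 had 103 and 19 reads, a 3.52-fold difference (-1.82, -2.67 to -1.16), and was the only region of this gene to be called. Its nearest neighbour, from 77073243 to 77073396, had 30 and 12 reads (-0.69, -1.86 to 0.25), and the next on the other side, from 77076166 to 77076883, had 251 and 224 (0.40, 0.13 to 0.66). Beyond the higher coordinate end, the region from 77140353 to 77140538 had 28 and 18 reads (-0.05, -1.02 to 0.83).

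NCOR1, whose protein recruits histone deacetylase activity to unliganded receptors, lies on chromosome 12 from 59256868 to 59392564. Its 22 regions had 23 to 823 reads, with Duroc counts from 16 to 484 (median 72) and Luchuan counts from 6 to 339 (median 39.5). Ratios were below 0 in 14 regions, but only 1 interval left out 0. That region, from 59359129 to 59359570 and of Duroc only, had 142 and 36 reads, a 2.62-fold difference (-1.39, -1.99 to -0.88). The strongest region, from 59256366 to 59257286 with 484 and 339 reads (0.05, -0.16 to 0.25), spans the lower end of NCOR1 and the upper end of PIGL, which overlap by 29 bases, so it cannot be given to either. Beyond the opposite end, the region from 59394079 to 59394556 inside TTC19 had 136 and 106 reads (0.20, -0.18 to 0.58). With the 3 regions inside PIGL and TTC19 left out, the ratio of NCOR1 moved from -0.18 to -0.29 (-0.42 to -0.17).

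NCOA1, also known as SRC-1, lies on chromosome 3 from 113997214 to 114251080 and had 45 regions with a median of 54 reads. The Duroc reads per region lay between 11 and 989 (median 33) and the Luchuan reads between 0 and 629 (median 22). Ratios were above 0 in 21 regions and below in 24, and the summed ratio of -0.03 became -0.23 (-0.30 to -0.16) with clean reads as the scale. Its strongest region, across the higher coordinate end from 114250165 to 114251585, had 989 and 629 reads (-0.09, -0.24 to 0.05) and held 23.4% of the reads. Nearest the lower end, the region from 113994799 to 113995280 had 123 and 88 reads (0.08, -0.33 to 0.48).

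The 4 calls of NCOA1 were all on weak regions. Higher in Luchuan were those from 114012518 to 114012678 with 18 reads in Duroc and 34 in Luchuan (1.44, 0.61 to 2.39) and from 114178473 to 114178635 with 11 and 17 (1.15, 0.01 to 2.43). Lower were those from 114137299 to 114137455 with 33 and 5 reads (-1.94, -3.88 to -0.80) and from 114029498 to 114029672 with 20 Duroc reads and 0 in Luchuan. With Luchuan set to a floor of 3 reads and Duroc held at 20, the last was 4.52-fold lower in Luchuan. This is no bound on the difference. The counting interval of its ratio, which also covers the Duroc reads, reached up to -1.74. The number of lower calls depended on the scaling and was 7 when regions were centred against others of like depth and 8 with clean reads as the scale. Cut into 3 stretches, the middle one stood below the rest by -0.33 (-0.50 to -0.16), with a ratio of -0.29 (-0.44 to -0.14) over 14 regions against 0.06 and 0.02 in the outer stretches.

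**Figure D4:**
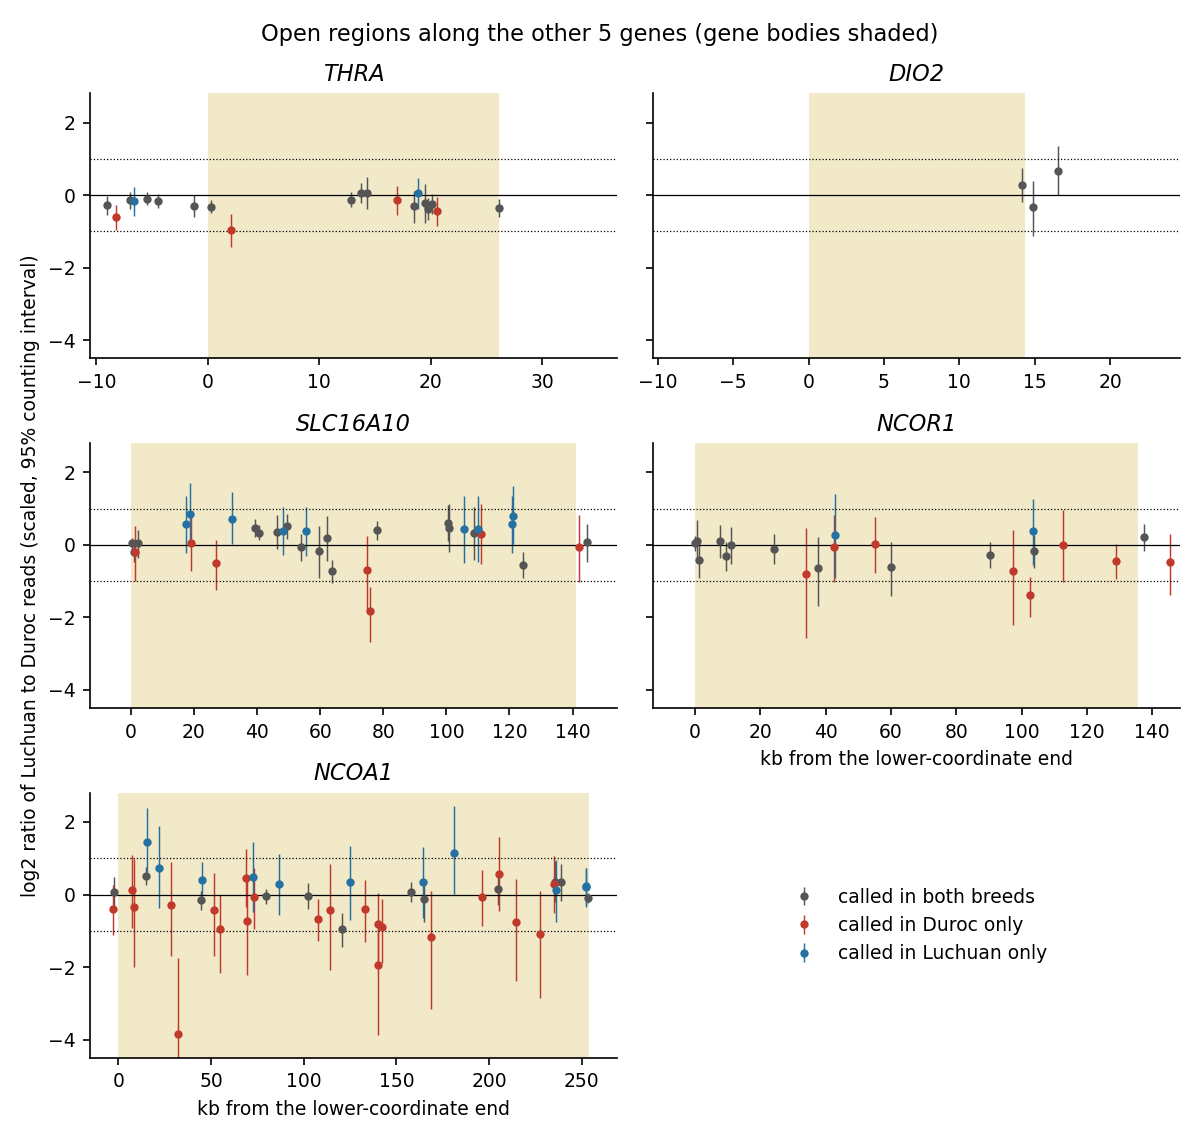
Log2 ratio of Luchuan to Duroc reads (y axis, scaled, bars are 95% counting intervals) of the regions of THRA, DIO2, SLC16A10, NCOR1 and NCOA1 by distance from the gene end with the lower coordinate (x axis, kb); shading marks the gene body and dotted lines 2-fold. The 20 THRA regions lie between -0.95 and 0.06, with 17 below 0. The NCOA1 point at -3.83 is the region with 0 Luchuan reads, drawn with 1 read added and its bar cut at the frame.

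The other genes of the pathway were read in the same way from a list by role, of which 35 genes with at least 1 region are reported, and SLC7A5 and DIO3 were not analysed here. Intervals lay above 0 for 8 genes, below 0 for 13 and across 0 for 14, and the median ratio was -0.05, beside -0.02 for all genes with 3 or more regions. Of their 553 regions 4.70% were called higher and 2.53% lower, under the 6.38% and 4.99% of the genome.

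Among the transporters, SLCO1C1, which carries thyroxine, had only 51 Duroc and 63 Luchuan reads (0.86, 0.31 to 1.43). SLC7A8 and SLC3A2, an amino acid transporter and the heavy chain it pairs with, lay at 0.01 and -0.11. Of the 7 genes that act on deiodinases or with them, SECISBP2, needed to build selenoproteins such as the deiodinases, was the lowest at -0.30 (-0.40 to -0.21), and USP33, which removes ubiquitin from DIO2 protein, was the highest among those with 100 or more reads at 0.26 (0.08 to 0.43). WSB1, part of the ubiquitin ligase for DIO2 protein, lay at -0.15 (-0.25 to -0.05). DIO1 had a single region with 16 Duroc and 22 Luchuan reads.

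The receptor partners and coregulators had ratios between -0.30 and 0.17. RXRG lay at -0.12 (-0.18 to -0.07) and RXRA at 0.05 (-0.01 to 0.11). In the corepressor complex that NCOR1 belongs to, TBL1XR1 was the lowest at -0.30 (-0.38 to -0.22) and HDAC3, its deacetylase, the highest at 0.17 (0.06 to 0.27). TBL1XR1 lay at the 10.5th percentile of genes with 3 or more regions, further out than THRA at the 15.6th. The 5 other coactivators ran from -0.14 for NCOA3 (-0.29 to 0.00) to 0.05 for NCOA2 (-0.03 to 0.12), beside -0.03 for NCOA1, and the interval of CREBBP (-0.08, -0.17 to -0.0020) left out 0.

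The 13 genes commonly described as responsive to triiodothyronine went in both directions, with 4 intervals above 0, 5 below and a median ratio of -0.04. PDK4, a kinase that restrains glucose oxidation, was the highest with 1814 Duroc and 2143 Luchuan reads (0.80, 0.71 to 0.89), and 7 of its 11 regions were called higher. Of the 252 regions of these 13 genes 18, or 7.14%, were called higher, beside 6.38% of all regions. These 18 were the 7 of PDK4, 9 of PPARGC1A and 2 of KLF9, so the share rested on few genes. PPARGC1A, the coactivator of mitochondrial genes, followed at 0.30 (0.25 to 0.35) with 9 of 62 regions called higher. MYH7, the slow myosin heavy chain that the hormone represses, was the lowest at -0.43 (-0.51 to -0.36), and ATP2A1, the calcium pump of fast fibers that the hormone induces, lay at -0.28 (-0.33 to -0.23). ATP2A1 and MYH7 are muscle genes, and the muscle marker list above had a median of -0.31 with a range of -0.62 to 0.06. The part of this in their ratios was not tested.

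**Figure D5:**
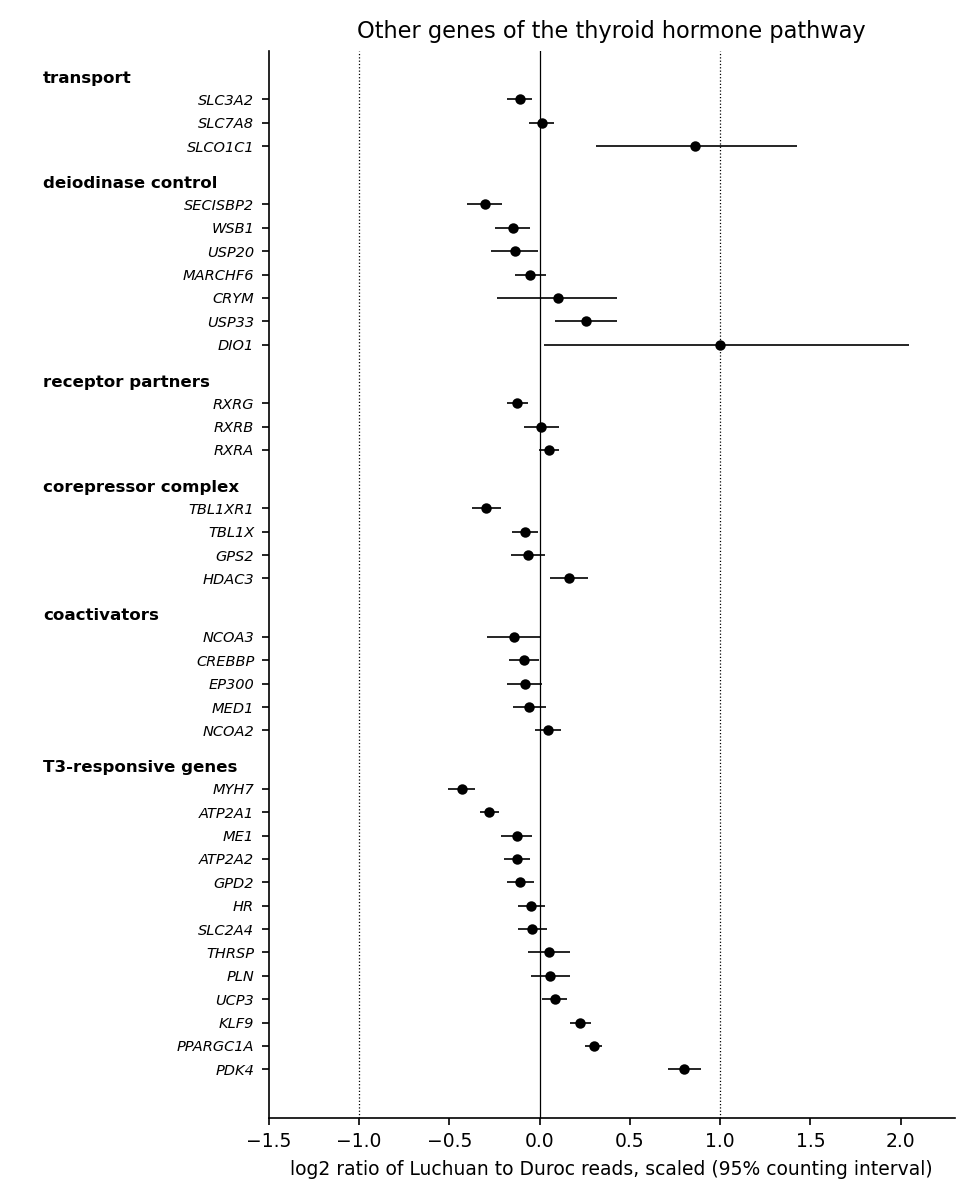
Log2 ratio of Luchuan to Duroc reads per gene (x axis, scaled, bars are 95% counting intervals, dotted lines mark 2-fold) for the 35 other genes of the pathway that are reported, grouped by role (y axis). PDK4 at 0.80 is the highest of the T3-responsive genes (T3, triiodothyronine) and MYH7 at -0.43 the lowest.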

How the data were processed

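Per the labels and the study's methods, the authors filtered reads with Trimmomatic (0.36), aligned them to Sus scrofa 11.1 with Bowtie2 and found peaks with MACS2. Duplicate removal, transposase shift and the pooling of boars are not given in the sources used here. The authors deposited raw read counts per peak interval and breed, and also their own rescaled fold change, signal and P, which were not used. RNA-seq was not analysed here.

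Starts were taken as counted from 0, since the shortest interval is then 150 bases. Intervals called in both breeds were merged where they overlapped or touched, and the longest stood for its region, leaving 20759894 Duroc and 13746020 Luchuan reads, with medians of 61 and 38 a region. Genes were 19550 protein-coding RefSeq entries (assembly Sscrofa11.1, autosomes and sex chromosomes). A region counted for every gene whose window held it. Intervals on differences between genes used a normal approximation of the log ratio. Calls were run on simulated counts that held counting error alone and changes larger than 2-fold. That run covers no spread between boars, and its outcome is not reported here. Alternatives were other scalings, merging rules, windows, fold and depth limits, another pseudocount and the median of region ratios.

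The 6 genes, the lists and the limits were chosen with earlier results of these data known. Named regions of each gene are the one with the most reads, the nearest to each end, and up to 4 called in each direction by reads. Named list genes are the highest and the lowest of each role with 100 or more reads and any past 2-fold. The first 10 kb and the 30 to 60 kb of SLC16A10, the neighbours of its called region, the regions highest per kb, the 60 kb and the depth limit of THRB, and SLC7A8, WSB1, DIO1, CREBBP, TEK, KDR, PPARGC1A and ATP2A1 were chosen after values were seen. So were PECAM1, CDH5, CIDEC, LEP, CD3E, PTPRC and KLF9. MARCHF6 was matched by its older symbol, PAX8 was not analysed here, and some listed genes are not reported here. No sequence is shown, and promoter motifs were not searched, since no sequence was given. Intervals came from SciPy 1.17.1, tables from pandas 2.3.3 and NumPy 2.4.6, and plots from Matplotlib 3.10.9, under Python 3.11.15.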

Additional observations from a re-analysis of the deposited data

How the results depend on the processing

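No paired analysis was possible because each breed has 1 pooled count per region, and for the same reason no boar could be left out. On the scale of the study's clean reads, THRB turned to -0.085 and SLC16A10 to -0.10, while THRA moved to -0.43, NCOR1 to -0.37 and NCOA1 to -0.23, and 4 regions were called higher and 15 lower. Centring within bins of reads gave 4 and 13. Only regions of 50 or more reads gave 5 and 5, and a 1.5-fold limit 18 and 15. NCOR1 was -0.29 in its gene body alone and -0.29 with regions in no other gene body. By the median of region ratios, THRB was 0.20 and SLC16A10 0.32. These 17 values moved or turned. Counting every interval left DIO2 at 0.26, but its interval (0.015 to 0.51) then left out 0. The other 81 stayed within the counting interval of the reported ratio or within 1.5 times the reported count. They covered the other scalings, merging rules, windows and pseudocount. Counting depth limits DIO2 and the regions under 100 reads most, and spread between boars is in none of the intervals.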
